A study of Homo sapiens with 16 samples.

Results

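The mRNAs of 5 secreted signalling proteins, GDF15, STC2, ADM2, ADM and VEGFA, were followed across all 16 libraries of an experiment on the human papillary thyroid carcinoma lines TPC1 and K1. They were taken from the count table by gene symbol, as a set proposed with results of these data known, and make up 5 of its 25369 genes. Both lines express wild type p53. Treatment lasted 24 h, with 0.2% DMSO as vehicle, nutlin at 10 µM, GSK2830371 at 25 µM or the 2 together at these doses, which made 8 groups of 2 libraries. Nutlin blocks the binding of MDM2 to p53, and GSK2830371 inhibits the phosphatase PPM1D, so the comparisons address what removal of each repressor of p53 did alone and what removal of both did together. TPC1 was grown in RPMI and K1 in DMEM, each with 10% fetal bovine serum, and each line is a single culture model of a tumour without stroma, vessels or immune cells.

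Cells under stress release proteins that change the behaviour of neighbouring tissue or of the whole body. GDF15 is a distant member of the TGF-beta family that acts on a brainstem receptor to reduce appetite, and it is a well known transcriptional target of both p53 and the integrated stress response (ISR), the program in which phosphorylated eIF2alpha favours translation of the transcription factor ATF4. STC2 is a stanniocalcin, a glycoprotein linked to calcium and phosphate handling and to endoplasmic reticulum stress. ADM and ADM2 are vasodilator peptides of the calcitonin family, and VEGFA is the principal growth factor of blood vessels, with ADM and VEGFA best known as genes induced by hypoxia.

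Each library was a strand-specific, polyadenylated RNA library, and gene counts per library totalled 30789887 to 76648552 for TPC1 and 28888686 to 37161241 for K1. Levels are given as CPM (a gene's count over the library total, on the usual scale of 1e6 counts), scaled with TMM factors within a line. The lines carried the thyroid transcription factors PAX8 (291 to 459 CPM in TPC1, 750 to 847 CPM in K1) and FOXE1 (at most 27.5 CPM in TPC1 and 28.9 to 38.5 CPM in K1), together with the keratins KRT8 and KRT18. The epithelial markers EPCAM and CDH1 did not exceed 17 and 2 counts. Markers of differentiated thyroid tissue were low. TSHR had no count in any library, NKX2-1 had none in TPC1 and at most 10 in K1, the iodide transporter SLC5A5 reached at most 21 counts, and thyroglobulin (TG) reached at most 5.09 CPM in TPC1 and 6.10 CPM in K1. Nutlin raised TG (3.23 in TPC1 and 1.01 in K1, log2) and, on these few counts, SLC5A5 in both lines beside GDF15, and their part in the results was not tested. The leukocyte markers PTPRC and CD3E did not exceed 2 counts, the endothelial markers PECAM1 and CDH5 did not exceed 7, and the fibroblast marker DCN was at 0 in TPC1 and reached at most 19 counts in K1. The mural markers moved with nutlin. ACTA2 was raised in TPC1 (3.84, from 8.64 to 124 CPM) and in K1 (0.61, from 24.3 to 37.2 CPM), and PDGFRB was lowered in TPC1 (-1.40, from 13.5 to 5.09 CPM), and their part in the results was not tested. TPC1 count columns were numbered 1 and 3, whereas the sample labels number the replicates 1 and 2, and the TPC1 libraries are therefore named here by column. The study describes its replicates in general as independently prepared, while the labels say nothing on this for the libraries used here. Bulk RNA cannot tell more transcript per cell from more cells expressing a gene.

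The 5 genes moved in different directions. Under the drug combination GDF15 and ADM2 reached their highest level in both lines, with combination libraries above all 6 other libraries of the line. STC2 behaved differently from both in TPC1, where nutlin lowered it 5.32-fold and the addition of GSK2830371 raised it 8.09-fold over nutlin alone. ADM, a relative of ADM2, was lowered 1.89-fold by nutlin in TPC1 and was not called in the combination against nutlin in either line. VEGFA moved by less than 1.5-fold in every comparison within a line. A gene is called where edgeR's quasi-likelihood test gave a Benjamini-Hochberg adjusted p under 0.05 over all genes tested and the fold change exceeded 1.5, and only called genes are described as raised, lowered, higher or lower.

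The sequence just upstream of the transcription start was examined because 3 of the genes responded to the combination together. RefSeq promoters matched 4 of the 5 members, and the 250 bases before each start are printed 5′ to 3′ on the strand of the gene in GRCh38.p14. Capitals mark GCGTG, one spelling of the core of the hypoxia response element, or its reverse complement.
GDF15, chr19:18385908-18386157, plus strand: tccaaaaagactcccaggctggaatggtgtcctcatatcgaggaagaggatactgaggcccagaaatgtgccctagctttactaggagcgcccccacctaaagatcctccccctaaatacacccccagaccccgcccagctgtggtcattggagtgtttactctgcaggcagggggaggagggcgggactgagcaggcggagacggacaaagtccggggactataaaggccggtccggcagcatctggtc
STC2, chr5:173328415-173328664, minus strand: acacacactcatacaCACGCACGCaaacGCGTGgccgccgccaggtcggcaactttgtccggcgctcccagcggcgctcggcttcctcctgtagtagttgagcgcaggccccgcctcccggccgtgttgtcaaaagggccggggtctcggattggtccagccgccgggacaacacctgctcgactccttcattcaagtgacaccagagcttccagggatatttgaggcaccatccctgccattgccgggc
ADM2, chr22:50481293-50481542, plus strand: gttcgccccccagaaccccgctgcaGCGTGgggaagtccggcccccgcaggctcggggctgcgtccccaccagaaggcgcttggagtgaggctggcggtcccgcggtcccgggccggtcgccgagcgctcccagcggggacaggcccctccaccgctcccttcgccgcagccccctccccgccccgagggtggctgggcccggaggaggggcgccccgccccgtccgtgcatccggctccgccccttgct
ADM, chr11:10304823-10305072, plus strand: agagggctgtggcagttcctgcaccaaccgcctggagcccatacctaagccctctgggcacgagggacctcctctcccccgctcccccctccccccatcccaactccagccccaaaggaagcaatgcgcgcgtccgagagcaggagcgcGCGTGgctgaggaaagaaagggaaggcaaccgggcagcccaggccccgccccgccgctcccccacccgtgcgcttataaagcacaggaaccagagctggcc
GCGTG was found at 3 positions in STC2, 2 of them overlapping by 1 base and read on the opposite strand, and at 1 position each in ADM2 and ADM, whereas GDF15 had none. On either strand, 32.2% of the 35116 RefSeq promoters of the same length held GCGTG. None of these 4 stretches held TGATGNAA, the composite element read by ATF4 and its partners (3.14% of promoters), the other hypoxia spelling ACGTG (18.5%), the cyclic AMP response element TGACGTCA (1.65%), or a p53 half-site (5.57%). These are letter matches in a short window and do not describe elements further away.

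**Figure D1:**
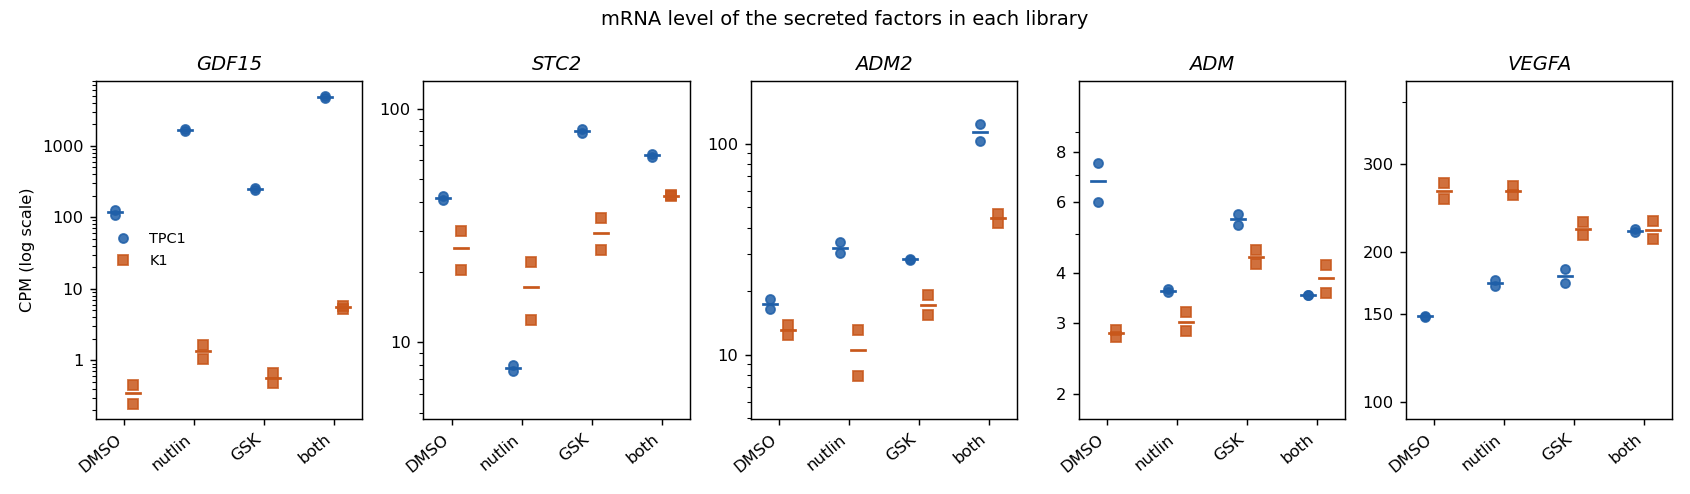
CPM on a log axis for GDF15, STC2, ADM2, ADM and VEGFA, with 1 point per library (blue circles, TPC1; orange squares, K1), a bar at the mean of each group of 2, and the treatments DMSO, nutlin, GSK2830371 (GSK) and the combination (both) from left to right. GDF15 in TPC1 climbs from 107 and 127 CPM to 4693 and 5001 CPM while K1 reaches at most 5.83 CPM, and STC2 in TPC1 dips to 7.53 and 8.02 CPM with nutlin.

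GDF15 lies on chromosome 19 (chr19:18496968-18499986 in GRCh37, plus strand, 2 exons). In TPC1 its libraries gave 107 and 127 CPM with DMSO, 243 and 260 CPM with GSK2830371, 1604 and 1724 CPM with nutlin, and 4693 and 5001 CPM with the combination. The groups did not overlap, and in the combination GDF15 alone took up to 0.480% of all counts in a library. Nutlin raised it by 3.83 ± 0.114 on the log2 scale (14.2-fold, SE, adjusted p = 1.5e-08), GSK2830371 by 1.10 ± 0.104 (2.15-fold, adjusted p = 0.0028), and the combination by 5.37 ± 0.123 over DMSO (41.3-fold, adjusted p = 3.3e-09). Against nutlin alone, the combination was higher by 1.54 ± 0.104 (2.91-fold, adjusted p = 3.3e-05). The interaction, which is the nutlin effect in the presence of GSK2830371 minus that in its absence, was 0.44 ± 0.145 (adjusted p = 0.097), so the joint effect did not pass the test as more than the product of the single effects. With the replicate number as a block, which the TPC1 libraries allow, the same value was 0.44 with an adjusted p of 0.0015, still under the fold threshold.

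K1 expressed almost no GDF15. Its libraries held 16 and 9 counts with DMSO (0.456 and 0.243 CPM), 15 and 20 with GSK2830371, 30 and 53 with nutlin, and 169 and 193 with the combination (5.23 and 5.83 CPM). Even the combination libraries of K1 thus lay below the lowest TPC1 library treated with vehicle, 107 CPM. On this low base nutlin raised GDF15 by 1.96 ± 0.351 (3.88-fold, adjusted p = 0.00081) and the combination by 3.98 ± 0.272 over DMSO (15.8-fold, adjusted p = 6.2e-08) and by 2.03 ± 0.218 over nutlin (4.07-fold, adjusted p = 0.00011). The effect of GSK2830371 alone was 0.71 ± 0.423 (adjusted p = 0.28) and moved from 0.32 without DMSO replicate 2 to 1.22 without DMSO replicate 1. The interaction of 1.32 ± 0.498 did not pass the test (adjusted p = 0.13) and was 0.81 without DMSO replicate 1.

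STC2 lies on the minus strand of chromosome 5 (chr5:172741726-172755417 in GRCh37, 4 exons). TPC1 libraries gave 42.3 and 40.7 CPM with DMSO, 7.53 and 8.02 CPM with nutlin, 82.0 and 79.0 CPM with GSK2830371, and 62.3 and 64.0 CPM with the combination. The drugs thus moved STC2 in opposite directions when given alone, and the combination libraries lay between those of DMSO and GSK2830371. Nutlin lowered it (log2 fold change -2.41 ± 0.0833, adjusted p = 3.2e-08), while GSK2830371 raised it by 0.96 ± 0.0756 (1.94-fold, adjusted p = 0.0012). The combination was higher than nutlin by 3.02 ± 0.0844 (adjusted p = 4.1e-07), with an interaction of 2.06 ± 0.111 (adjusted p = 0.00014), the largest interaction among the 5 genes in TPC1. Against DMSO the combination gave 0.61 ± 0.0754 (1.52-fold, adjusted p = 9.4e-05), a call that was lost when libraries were scaled by size alone (0.55). Against GSK2830371 the combination gave -0.35 ± 0.0748 (1.27-fold, adjusted p = 0.0031), which is under the fold threshold.

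The K1 libraries gave 20.4 and 30.1 CPM of STC2 with DMSO, 21.97 and 12.5 CPM with nutlin, 34.1 and 24.8 CPM with GSK2830371, and 42.3 and 42.6 CPM with the combination. Replicates within a group differed by up to 1.76-fold, so DMSO overlapped with both nutlin and GSK2830371, and only the combination libraries stood above all others. Nutlin alone gave -0.56 ± 0.221 (adjusted p = 0.072), but without nutlin replicate 1 it gave -1.02 (adjusted p = 0.011) and without DMSO replicate 1 it gave -0.81 (adjusted p = 0.017). The combination was higher than nutlin by 1.31 ± 0.216 (2.48-fold, adjusted p = 0.0018) and higher than DMSO by 0.75 ± 0.205 (1.68-fold, adjusted p = 0.0092). The latter call was lost without DMSO replicate 1 (0.50, adjusted p = 0.094) and in DESeq2 (adjusted p = 0.099). Against GSK2830371 the combination gave 0.53 ± 0.205 (adjusted p = 0.056), and this was called without GSK2830371 replicate 1 (0.77, adjusted p = 0.017). The interaction, 1.09 ± 0.301 (adjusted p = 0.043), was lost without DMSO replicate 2 (0.78), nutlin replicate 2 (0.73), GSK2830371 replicate 2 (0.88), combination replicate 1 (1.09) or combination replicate 2 (1.08).

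The spread between K1 replicates was compared across genes. In the nutlin group replicate 2 was lower than replicate 1 by 0.82 on the log2 scale for STC2 and by 0.72 for ADM2, and 4 of 19 ISR target genes were higher in replicate 2, with a median difference of -0.20. In the DMSO group replicate 2 was above replicate 1 by 0.56 for STC2 and 0.15 for ADM2, and 13 of 19 ISR targets were higher there, with a median of 0.11. The median replicate difference over 12544 expressed genes was 0.016 in the nutlin group and -0.0042 in the DMSO group. In the GSK2830371 group the differences were -0.46 for STC2 and -0.32 for ADM2 with an ISR median of -0.060, and in the combination group 0.01 and 0.14 with a median of -0.0081. GDF15 had the opposite sign to STC2 in the nutlin, DMSO and GSK2830371 groups (0.66, -0.91 and 0.48). These GDF15 values rest on only 9 to 53 counts per library, so their signs are uncertain. The part of this replicate variation in the K1 results was not tested.

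ADM2, also called intermedin, lies on chromosome 22 (chr22:50919972-50924866 in GRCh37, plus strand, 3 exons) and shares exonic bases with SBF1 on the opposite strand. Counting used strand, and the group means of SBF1 spanned 114 to 129 CPM for TPC1 and 169 to 198 CPM for K1. TPC1 libraries gave 18.4 and 16.4 CPM of ADM2 with DMSO, 34.0 and 30.2 CPM with nutlin, 28.5 and 28.2 CPM with GSK2830371, and 124 and 104 CPM with the combination. Each drug alone raised ADM2, and the combination libraries stood far above the highest other TPC1 library, at 34.0 CPM. Nutlin gave 0.88 ± 0.113 (1.85-fold, adjusted p = 0.00014), GSK2830371 0.71 ± 0.112 (1.63-fold, adjusted p = 0.019), the combination 2.71 ± 0.116 over DMSO (6.54-fold, adjusted p = 8.5e-08) and 1.83 ± 0.112 over nutlin (3.54-fold, adjusted p = 2e-05). The interaction was 1.12 ± 0.156 (adjusted p = 0.0045). The call for GSK2830371 alone was lost without DMSO replicate 3 (0.63, adjusted p = 0.087), GSK2830371 replicate 1 (0.70, adjusted p = 0.15) or GSK2830371 replicate 3 (0.71, adjusted p = 0.15).

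In K1, ADM2 was at 12.4 and 13.8 CPM with DMSO, 13.1 and 7.95 CPM with nutlin, 19.2 and 15.4 CPM with GSK2830371, and 42.3 and 46.5 CPM with the combination. Neither drug alone gave a call (-0.32 ± 0.174 for nutlin, adjusted p = 0.19; 0.40 ± 0.164 for GSK2830371, adjusted p = 0.11), although without nutlin replicate 1 the nutlin effect was called at -0.72 (adjusted p = 0.0070). The combination was higher than DMSO by 1.76 ± 0.154 (3.39-fold, adjusted p = 7.3e-07) and higher than nutlin by 2.08 ± 0.161 (4.24-fold, adjusted p = 8.4e-06). With an interaction of 1.69 ± 0.231 (adjusted p = 0.0041), ADM2 was called for more than the product of the single effects in both lines.

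ADM, or adrenomedullin, lies on chromosome 11 (chr11:10326620-10328944 in GRCh37, plus strand, 4 exons). It was scarce, at 6.01 and 7.52 CPM in TPC1 with DMSO, 3.64 and 3.59 CPM with nutlin, 5.61 and 5.28 CPM with GSK2830371, and 3.51 and 3.53 CPM with the combination. All libraries that received nutlin lay below all that did not. Nutlin gave -0.92 ± 0.141 (adjusted p = 0.00048) and the combination -0.95 ± 0.141 against DMSO (adjusted p = 0.00028), while the combination against nutlin gave -0.04 ± 0.148 (adjusted p = 0.89). Relative to GSK2830371 the combination was lower (-0.62 ± 0.143, adjusted p = 0.0045), a call lost without GSK2830371 replicate 1 (-0.58).

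K1 showed another order for ADM, with 2.77 and 2.88 CPM with DMSO, 3.19 and 2.86 CPM with nutlin, 4.20 and 4.56 CPM with GSK2830371, and 4.18 and 3.57 CPM with the combination. Here the libraries with GSK2830371 lay above those without it. ADM was the 1 member raised by GSK2830371 alone in K1 (0.63 ± 0.148, 1.55-fold, adjusted p = 0.0094), on 97 to 137 counts per library in these groups. The call was lost without DMSO replicate 1 (0.60, adjusted p = 0.063), without GSK2830371 replicate 2 (0.57) and after removal of the trend with GC content and length (0.50). Nutlin gave 0.09 ± 0.157 (adjusted p = 0.71).

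VEGFA lies on chromosome 6 (chr6:43737948-43754224 in GRCh37, plus strand, 8 exons in the transcript used here). TPC1 libraries gave 149 and 148 CPM with DMSO, 171 and 176 CPM with nutlin, 185 and 173 CPM with GSK2830371, and 222 and 219 CPM with the combination. The single-drug groups overlapped and lay between DMSO and the combination. The combination against DMSO gave 0.57 ± 0.0699 (1.49-fold, adjusted p = 8e-05), just under the fold threshold, and it passed with DESeq2 size factors (0.59), in DESeq2 itself (0.59) and without combination replicate 3 (0.59). Against nutlin the combination gave 0.35 ± 0.0697 (1.27-fold, adjusted p = 0.0065).

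The K1 libraries fell into 2 levels, with 276 and 256 CPM of VEGFA under DMSO, 260 and 271 CPM under nutlin, 216 and 230 CPM under GSK2830371, and 212 and 231 CPM under the combination. All libraries with GSK2830371 lay below all without it. GSK2830371 gave -0.25 ± 0.0606 (1.19-fold, adjusted p = 0.010) and the combination -0.26 ± 0.0607 against nutlin (adjusted p = 0.013), both too small for a call, and nutlin gave 0.00 within rounding with an SE of 0.0604 (adjusted p = 0.99).

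**Figure D2:**
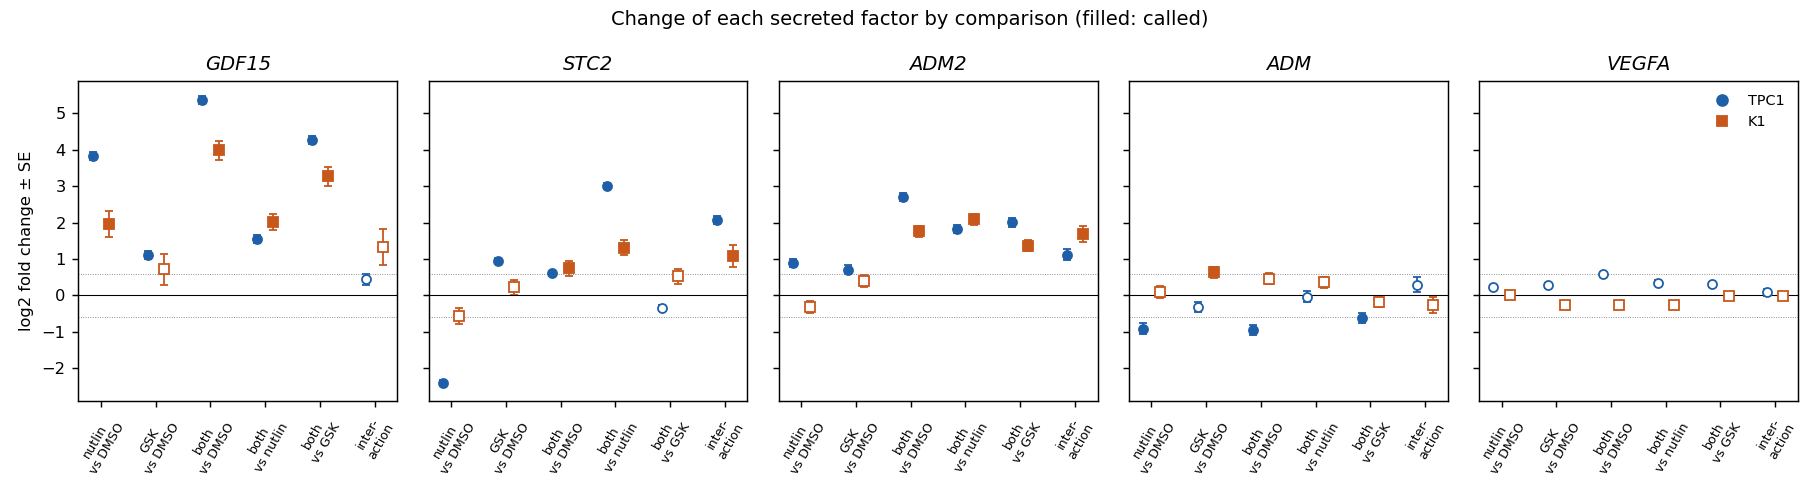
Log2 fold change ± SE of each gene in 5 comparisons and the interaction, for TPC1 (blue circles) and K1 (orange squares), with filled symbols for called values and dotted lines at a fold change of 1.5. GDF15, STC2 and ADM2 are filled in both lines for the combination against nutlin, whereas ADM and VEGFA are unfilled there.

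Counted by comparison in TPC1, nutlin raised 2 members (17.5% of all 15273 genes tested were raised) and lowered 2 (18% were lowered), so a change on nutlin was common among all genes. GSK2830371 raised 3 members, GDF15, STC2 and ADM2, against a background of 0.72% raised, and lowered 0 against 0.681%. The combination raised 3 over DMSO (background 22.5%) and lowered 1 (21.7%). Relative to nutlin, the combination was higher for 3 (6.46%) and lower for 0 (5.66%), and relative to GSK2830371 it was higher for 2 (19.5%) and lower for 1 (19%). The interaction was positive for 2 (2.82%) and negative for 0 (3.5%).

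In K1, with 15900 genes tested, nutlin raised 1 member, GDF15 (background 3.84%), and lowered 0 (5.43%). GSK2830371 raised 1, ADM (0.736%), and lowered 0 (1.5%). The combination raised 3 over DMSO (7.62%) and lowered 0 (8.09%). Relative to nutlin it was higher for the same 3 genes as in TPC1, GDF15, STC2 and ADM2 (1.16%), and lower for 0 (1.52%). Relative to GSK2830371 it was higher for 2 (6.3%) and lower for 0 (6.75%), and the interaction was positive for 2, ADM2 and STC2 (1.79%), and negative for 0 (0.654%). The median log2 fold change of the combination against nutlin over all genes was 0.013 in TPC1 and 0.0044 in K1, beside 1.54 and 1.31 for the 5 members.

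The 2 lines were then set against each other, using 16738 genes and all 16 libraries in 1 model. With nutlin, K1 minus TPC1 was higher for ADM (0.98 ± 0.216) and STC2 (1.81 ± 0.291) and lower for ADM2 (-1.24 ± 0.232) and GDF15 (-1.90 ± 0.429), beside 8.73% of all genes higher and 10.5% lower. The response to GSK2830371 was higher in K1 for ADM (0.97 ± 0.205), with 0 members lower (background 0.597% and 1.58%). For the combination against DMSO, 1 member was higher in K1, ADM (1.38 ± 0.210), and 3 were lower, GDF15 (-1.41 ± 0.397), ADM2 (-0.98 ± 0.220) and VEGFA (-0.86 ± 0.0977), beside 11.9% and 13.8%. For the combination against nutlin 0 members were higher and 2 were lower in K1, STC2 (-1.70 ± 0.289, adjusted p = 0.0017) and VEGFA (-0.60 ± 0.0976, adjusted p = 0.0012), beside 2.56% of all genes higher and 2.56% lower. The gain of ADM2 over nutlin, 1.83 in TPC1 and 2.08 in K1, differed by 0.26 ± 0.222 (adjusted p = 0.55), and that of GDF15 by 0.49 ± 0.244 (adjusted p = 0.26). For the combination against GSK2830371, STC2 was higher in K1 (0.85 ± 0.269), while ADM2 (-0.67 ± 0.216) and GDF15 (-1.02 ± 0.339) were lower. The share of all genes is not given for that comparison, so how unusual these calls are cannot be judged. In the interaction 0 members passed in either direction, where 1.95% of all genes were higher and 1.19% lower in K1, and STC2 had the largest difference, -0.97 ± 0.396 (adjusted p = 0.20).

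Under vehicle alone, K1 was lower than TPC1 in 3 members, GDF15 (-8.41 ± 0.206, 340-fold), ADM (-1.29 ± 0.145) and STC2 (-0.73 ± 0.193), and higher in 1, VEGFA (0.82 ± 0.0694), where 21.2% of all genes were lower and 25% higher. Line, culture medium and library batch cannot be told apart in these level differences. Per kb of transcript with DMSO, the order in TPC1 was GDF15 (97.6 CPM per kb), VEGFA (41.1), STC2 (9.76), ADM (4.54) and ADM2 (4.13), and the libraries of ADM and ADM2 overlapped. In K1 with DMSO the order was VEGFA (73.7 CPM per kb), STC2 (5.93), ADM2 (3.11), ADM (1.89) and GDF15 (0.291), with no overlap between neighbours. With the combination, GDF15 led in TPC1 at 4040 CPM per kb and VEGFA led in K1 at 61.4, where ADM2 (10.5) and STC2 (9.98) followed. In K1 combination replicate 1, ADM2 and STC2 had 1366 counts each. They differed there per kb only through the transcript lengths, 4213 and 4254 bases.

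Each member was set beside genes of its own family, from a list of 19 relatives. STC1, the other stanniocalcin, was lowered by nutlin in TPC1 as STC2 was (-0.96 and -2.41), but the addition of GSK2830371 to nutlin lowered STC1 further and raised STC2. The mean of STC1 was 44.3 ± 1.62 CPM (SD, n = 2) with DMSO, 22.8 ± 0.933 CPM with nutlin, 30.3 ± 0.645 CPM with GSK2830371 and 4.22 ± 0.495 CPM with the combination. Relative to nutlin STC1 changed by -2.42 ± 0.101 (adjusted p = 2.2e-06), with an interaction of -1.87 (adjusted p = 0.00026), whereas STC2 changed by 3.02 with an interaction of 2.06. In K1, STC1 was far more abundant, between 184 and 222 CPM in the group means, and the combination against nutlin gave -0.10 ± 0.0536 (adjusted p = 0.29). STC1 in K1 is named after its value was seen.

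The VEGF relatives also differed in direction in TPC1. VEGFB was lower with the combination than with nutlin (13.2 ± 4.14 against 32.6 ± 0.463 CPM, log2 fold change -1.32 ± 0.172, adjusted p = 0.00088), and PGF, a placental growth factor that shares the receptor FLT1 with VEGFA and VEGFB, was higher (61.7 ± 2.66 against 37.8 ± 2.07 CPM, 0.71 ± 0.105, adjusted p = 0.0016). Neither was called in K1 (-0.31 for VEGFB and 0.21 for PGF). Among the TGF-beta relatives of GDF15 in K1, INHBE, which encodes an activin subunit, was higher with the combination than with nutlin (2.23 ± 0.372, adjusted p = 0.0020), at a level of 1.71 against 0.367 CPM. Of the relatives, 11 were tested in TPC1 and 12 in K1, and the combination against nutlin was higher for 2 and lower for 3 in TPC1 and higher for 1 and lower for 0 in K1. The shares over all genes were 6.46% higher and 5.66% lower in TPC1, and 1.16% and 1.52% in K1. The median over the list was -0.40 in TPC1 and -0.028 in K1.

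**Figure D3:**
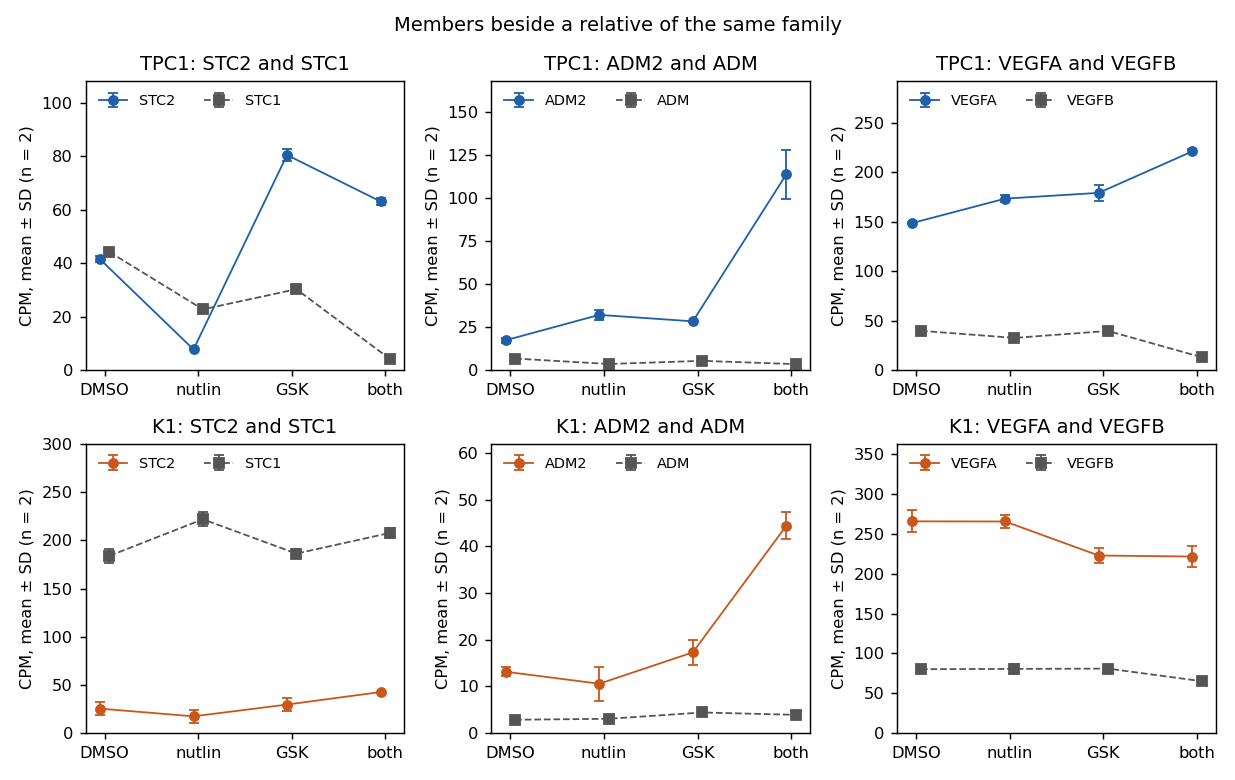
Mean CPM ± SD (n = 2) by treatment on a linear axis starting at 0, for STC2 and STC1, ADM2 and ADM, and VEGFA and VEGFB (solid line, first named; dashed grey line, relative), with TPC1 in the upper row and K1 in the lower. In TPC1 the combination (both) takes STC1 down to 4.22 CPM while STC2 stands at 63.1 CPM, and in K1 STC1 stays between 184 and 222 CPM.

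Receptors for these ligands were mostly missing from the cells themselves. GFRAL, the receptor of GDF15, reached at most 1 count in a library. RET, the gene of its co-receptor, was at 44.9 to 48.4 CPM in the TPC1 group means and at most 0.584 CPM in K1. A count per gene does not tell which part of RET was transcribed, so these values do not show a complete co-receptor. For ADM and ADM2, the receptor CALCRL and its partners RAMP1, RAMP2 and RAMP3 had group means of at most 0.263 CPM in TPC1, where RAMP3 had no count, and at most 1.57 CPM in K1. CALCRL was called in TPC1 for the combination against nutlin (2.94 ± 0.735, adjusted p = 0.018) on 15 counts or fewer per library. FLT1 was at or near 0 in both lines, and KDR, the main signalling receptor of VEGFA, was at or near 0 in TPC1 and fell in K1 from 7.61 ± 0.0316 CPM with DMSO to 4.58 ± 0.501 CPM with nutlin and 3.48 ± 0.588 CPM with the combination. The co-receptor NRP1 was plentiful, and in TPC1 it was lower with the combination than with nutlin (56.6 against 97.5 CPM, log2 fold change -0.79 ± 0.154, adjusted p = 0.0061), while in K1 it gave -0.19 (adjusted p = 0.076). NRP2 was not called in either line for this comparison (-0.31 in TPC1 and -0.02 in K1). Of the 10 receptors, 4 were tested in TPC1 and 7 in K1, and the combination against nutlin was higher for 1 and lower for 1 in TPC1 and called for 0 in K1, with list medians of -0.10 and -0.22. All genes gave 6.46% higher and 5.66% lower in TPC1, and 1.16% and 1.52% in K1.

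A list of 20 established ISR targets, none of them a member, was set beside GDF15, STC2 and ADM2. Relative to nutlin, the combination was higher for 17 of 19 tested in TPC1 (median 1.46) and 15 of 19 in K1 (median 0.87), and lower for 0 in both. Over all genes it was higher for 6.46% and lower for 5.66% in TPC1, and for 1.16% and 1.52% in K1. The glutathione-degrading enzyme CHAC1 led in both lines (5.00 ± 0.101 in TPC1 and 3.54 ± 0.149 in K1), followed by the transcription factor DDIT3 in TPC1 (3.72 ± 0.154) and the cystine transporter SLC7A11 in K1 (2.01 ± 0.219). STC2 at 3.02 in TPC1 lay below CHAC1 and DDIT3. In K1, ADM2 at 2.08 ± 0.161 and GDF15 at 2.03 ± 0.218 lay below CHAC1 and could not be told apart from SLC7A11 within their SEs.

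Nutlin alone split the same list in TPC1, raising 7 and lowering 5 of 19 (median 0.06). All genes tested in TPC1 were split too, with 17.5% raised and 18% lowered by nutlin. CHAC1 (-1.44), CEBPG (-1.13) and SLC7A11 (-1.10) were lowered there, as was STC2, whereas SESN2 (2.54) and NUPR1 (2.13) were raised, as was GDF15. The list is not free of p53 targets, since it holds ATF3, which the paper describes as a target of both p53 and ATF4. Whether p53 or the ISR moved the listed genes on nutlin was not tested. CEBPG, SESN2, NUPR1, ATF3 and, for TPC1, SLC7A11 are named after their values were seen. In K1 nutlin raised 1 and lowered 2 (median -0.16), beside 3.84% and 5.43% of all genes. GSK2830371 alone raised 12 of 19 in TPC1 (median 0.91), beside GDF15, STC2 and ADM2, and 0 of 19 in K1 (median 0.21), where none of these 3 members was called either. Of all genes, GSK2830371 raised 0.72% in TPC1 and 0.736% in K1. The ISR list was compiled with results of these samples known and is a description of them.

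**Figure D4:**
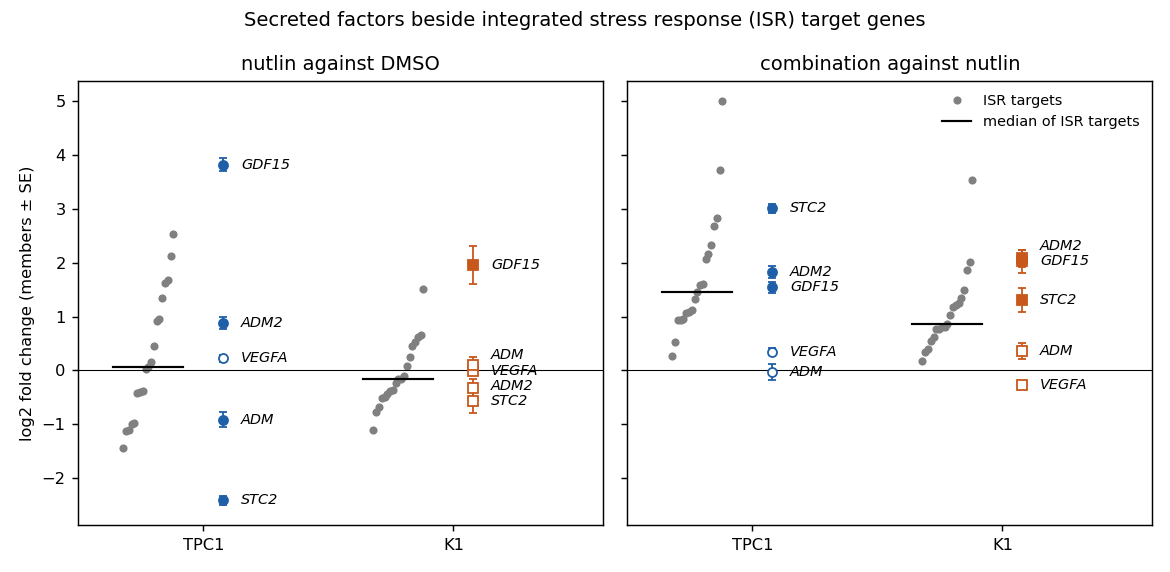
Log2 fold changes of 19 ISR target genes (grey points, black line at their median) beside the 5 secreted factors (coloured, ± SE, filled where called) for nutlin against DMSO and for the combination against nutlin, in each line. In TPC1 the ISR genes spread around a median of 0.06 with nutlin and shift to a median of 1.46 when GSK2830371 is added, with STC2 going from -2.41 to 3.02.

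The core p53 targets set a second reference, chosen in the same way. Nutlin raised 16 of 16 in both lines, with a median of 3.21 in TPC1 and 1.57 in K1, and GDF15 at 3.83 and 1.96 was above both medians. Of all genes, nutlin raised 17.5% and lowered 18% in TPC1, and 3.84% and 5.43% in K1. Relative to nutlin, the combination was higher for 4 of 16 in TPC1 (median 0.38) and 2 of 16 in K1 (median 0.31), where GDF15 gained 1.54 and 2.03. The shares over all genes were 6.46% higher and 5.66% lower in TPC1, and 1.16% and 1.52% in K1. The largest gain on this list was 1.08 ± 0.108 for the kinase PLK3 in TPC1 and 0.63 ± 0.0628 for MDM2 in K1. Among 12 other secreted products of p53 targets, nutlin raised 6 and lowered 2 of 12 tested in TPC1 (median 1.22) and raised 2 and lowered 1 of 11 in K1 (median 0.44). In TPC1 the combination was higher than nutlin for 4, among them the growth factors AREG (2.22 ± 0.188) and HBEGF (1.74 ± 0.155), and lower for IGFBP3 (-1.03 ± 0.181). In K1 it was called for 0 of 11.

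For ADM and VEGFA the reference was a list of 22 genes known to respond to hypoxia. In TPC1, nutlin raised 3 and lowered 6 of 21 tested (median -0.30), and the combination lowered 12 and raised 3 against DMSO (median -0.62), ADM being lowered too and VEGFA not called. Over all genes there, nutlin raised 17.5% and lowered 18%, and the combination raised 22.5% and lowered 21.7% against DMSO. The combination against nutlin was lower for 3, LDHA, the enzyme that makes lactate (-1.13 ± 0.186), the carbonic anhydrase CA12 (-0.86 ± 0.0904) and ANGPTL4 (-0.61 ± 0.139), and higher for 0 (median -0.16). The shares over all genes were 5.66% lower and 6.46% higher. ANGPTL4 is named after its value was seen, and it was raised by GSK2830371 in TPC1 (0.63) and by nutlin in K1 (0.96). The highest for the combination against nutlin in TPC1, NDRG1 (0.30) and MXI1 (0.27), were not called. Both were raised by nutlin (1.04 and 0.71) and by the combination over DMSO (1.34 and 0.98) in TPC1. In K1 the combination against nutlin was called for 0 of 21 (median 0.088), as for ADM and VEGFA. Of the hypoxia factors themselves, EPAS1 was raised by nutlin in TPC1 (1.63, from 153 to 473 CPM), while HIF1A gave 0.08, and for the combination against nutlin 0 of 4 were called in either line, with list medians of -0.074 and -0.027.

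Genes whose levels were most like those of each member were ranked by Pearson correlation over the 16 libraries, on log2(CPM + 1) centred within each line, among 11618 genes. The points share treatments and libraries, so the correlations describe these samples. For STC2 these were SLC1A4, an amino acid transporter (0.980), the methionyl-tRNA synthetase MARS (0.970) and EIF4EBP1, an inhibitor of cap-dependent translation (0.965), and the same 3 led with a pseudocount of 0.1. SLC1A4 showed the STC2 pattern closely in TPC1, with -2.68 for nutlin and 3.32 for the combination against nutlin. For ADM2 they were TTC17 (0.956), CLCC1 (0.937) and the ISR target TRIB3 (0.935), the last replaced by ULBP1 with a pseudocount of 0.1. For ADM they were ECE2 (0.963), ALG3 (0.946) and CD40 (0.942), and for VEGFA CAPRIN2 (0.907), PTCD2 (0.904) and FRMD5 (0.897), and with a pseudocount of 0.1 SURF4 replaced CD40 and ANTXR2 replaced FRMD5. For GDF15 they were SGMS1 (0.991), ANKRA2 (0.986) and PPAPDC2 (0.985), but with a pseudocount of 0.1 SESN2, ERO1LB and ATG13 led instead. Between members the highest value was 0.825 for GDF15 and ADM2 and the lowest -0.791 for ADM and VEGFA, while GDF15 and STC2 stood at -0.136.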

How the data were processed

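Strand-specific polyadenylated RNA of TPC1 and K1 cells was sequenced in 16 libraries, 2 for each of 4 treatments in each line. The authors trimmed and filtered the reads, aligned them to GRCh37 with TopHat2 2.0.13, discarded poorly mapped alignments, and tallied exonic reads with HTSeq 0.6.1 in its stranded mode, so the deposited values are raw read counts per gene symbol without normalization. Multiply mapped reads and duplicates were handled as the authors chose and were not revisited. The table has 25369 genes, 4539 of them without a count, and no sample column was left unused. A TPC1 column numbered 3 was placed in its treatment group only, since the labels do not hold that number.

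Counts were analysed with edgeR 4.0.16 in R 4.3.3. The filter required over 0.1 CPM in 2 or more libraries and left 15273 TPC1 genes and 15900 K1 genes. The 4 treatments of each line entered 1 joint model with TMM factors (0.961 to 1.04), and quasi-likelihood p-values were adjusted by Benjamini-Hochberg over all genes. Dispersion, fitted without a replicate block, was higher in TPC1 (0.00828) than in K1 (0.00273). Lines were compared in a model of all libraries. SE is the log2 fold change divided by the square root of F. CPM per kb used the length of the MANE Select transcript (GENCODE, lifted to GRCh37). The test of the combination against nutlin within each line was tried on simulated counts, with independent libraries and changes placed in genes averaging 1 CPM or more. That trial held no shared replicate effect and did not cover the interaction, the line comparison or scarcer genes. Library totals limit the precision of scarce genes.

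The members and all gene lists were chosen with earlier results of these data known. Members were named in every library and receptors all named. From each other list, the 2 highest and 2 lowest log2 fold changes of the combination against nutlin per line, among tested genes averaging 1 CPM or more, were named or eligible for naming, as were the 3 genes most correlated with each member. Promoters came from RefSeq (GRCh38.p14).

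Replicate numbers were examined as pairs by correlating replicate differences between treatments. In TPC1 all 6 correlations lay between 0.519 and 0.724 (12308 genes), so the numbers pair the libraries. In K1 they ran from -0.386 to 0.406 (12544 genes), so only a number is shared. The main models held treatment without a replicate block, so their TPC1 SEs and p-values include the shared replicate difference. The model of both lines was not run with a block. TPC1 columns numbered 3 were also deeper (62853375 to 76648552 counts) than those numbered 1 (30789887 to 36896529). Alternatives were DESeq2 size factors, library size alone, filterByExpr, no filter, DESeq2 1.42.0 with its Wald test, fits of the compared groups alone, a replicate block and the omission of each library, where a group left with 1 library takes its spread from the remaining groups. Removal of the trend with GC content and length was added after seeing the data. Some marker genes are not reported here.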

Additional observations from a re-analysis of the deposited data

Results flagged for a closer look

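Each of the 5 genes had at least 1 response that differed between the lines by a test of the difference itself. Values are K1 minus TPC1 on the log2 scale. The share of all genes with at least 1 such difference was not computed, so this count cannot be read as particular to the 5 genes. Single comparisons called many genes, with 8.73% higher and 10.5% lower in K1 for nutlin, and 11.9% and 13.8% for the combination against DMSO. With nutlin the differences were 0.98 for ADM, -1.24 for ADM2, -1.90 for GDF15 and 1.81 for STC2. With GSK2830371 the difference was 0.97 for ADM. For the combination against DMSO the values were 1.38 for ADM, -0.98 for ADM2, -1.41 for GDF15 and -0.86 for VEGFA. For the combination against GSK2830371, where no share of all genes is given, the values were 0.85 for STC2, -0.67 for ADM2 and -1.02 for GDF15. For the combination against nutlin the values were -1.70 for STC2, opposite in sign to the former, and -0.60 for VEGFA. That response of VEGFA was positive in TPC1 (0.35) and negative in K1 (-0.26), neither being past the fold threshold within its line. The GDF15 differences rest on 9 to 193 counts per library in K1.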

How the results depend on the processing

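Of the alternatives to the fold changes of the 5 genes, 963 kept direction and side of the threshold, 18 lost a call, 8 gained one and 21 changed sign, none of the 21 being called before or after. The difference between the lines in the combination against GSK2830371 was left out of this tally. With the GC content and length trend removed, TPC1 VEGFA nutlin against DMSO went from 0.22 to -0.0016, K1 VEGFA combination against GSK2830371 from -0.0083 to 0.022 and K1 VEGFA interaction from -0.0073 to 0.072. With library size alone the last 2 gave 0.031 and 0.044. With DESeq2 size factors and with DESeq2's Wald test, K1 VEGFA nutlin against DMSO gave 0.0078 in both and K1 VEGFA combination against GSK2830371 gave 0.0069 in both. When single libraries were left out, K1 VEGFA nutlin against DMSO ranged from -0.054 to 0.054, K1 VEGFA combination against GSK2830371 from -0.071 to 0.055, K1 VEGFA interaction from -0.071 to 0.050, K1 ADM2 nutlin against DMSO from -0.72 to 0.0027 and K1 STC2 GSK2830371 against DMSO from -0.028 to 0.53. For the combination against nutlin, the calls of GDF15, STC2 and ADM2 were kept in both lines under every alternative run. The replicate block changed no call of a member in either line, and under it the value for TPC1 STC2 combination against nutlin was 3.01. The K1 count of members with a positive interaction fell from 2 to 1 with library size alone, with DESeq2's Wald test and with the GC content and length trend removed, and ranged from 1 to 2 when single libraries were left out, STC2 being the gene lost. The K1 count raised by GSK2830371 was 0 with the GC content and length trend removed, and 0 to 1 when single libraries were left out. Leaving out single libraries also moved the count lowered by nutlin in K1 between 0 and 2, and that lowered by the combination against GSK2830371 in TPC1 between 0 and 1. The causes were not tested. For GDF15, 0 of the 3 most alike genes were shared with a pseudocount of 0.1. Depth limits GDF15 in K1, with as few as 9 counts, and the receptor genes.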
